A study of Mus musculus and Homo sapiens with 34 samples.

Results

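The type IV collagen family has 6 chains, and the genes Col4a1 to Col4a6 (COL4A1 to COL4A6 in human cells) were followed here by symbol through all 7 deposited count tables. They made up 40 of the 143438 gene rows over all tables, and 35 of those 40 rows passed the filter on low counts and could be tested. Col4a6 has no row in either table of the organoid culture 3154 and was not analysed there. The family was picked because Col4a3 was known to be far higher with trametinib in the mouse line 3311, so the values of that contrast are given below as a description and support nothing. The series holds 34 RNA libraries in 17 groups of 2, from mouse lung tumour organoids and 1 mouse lung tumour line (22 libraries) and from the human lung adenocarcinoma lines H1651 and H358 (12 libraries).

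Every mouse culture carried the alleles p53frt and Rosa-FSF-CreERT2, together with an activated oncogene allele that is not named here. The 3154 organoids also carried Hnf4aflox, so that 4-hydroxytamoxifen (4OHT), which activates the CreERT2 recombinase, deletes Hnf4a, the gene of a transcription factor of gut and liver epithelium. Organoids 1027B and line 3311 carried Foxa1flox and Foxa2flox instead, and no treatment that would delete either gene is named for them. In the 2-week experiment 3154 organoids received 4OHT or ethanol for 2 days, and the labels give the 4OHT dose as 2 mM, a unit that could not be checked here. In the 48-hour experiment they received ethanol or 4OHT, each with vehicle or 3 nM MRTX1133, a small-molecule inhibitor of the oncogene's product. The labels give no 4OHT dose for it and leave unclear whether the 48 hours run from 4OHT or from MRTX1133, so "48 hours" names that experiment and not a known time since deletion. Organoids 1027B received vehicle, 20 nM MRTX1133 or 10 nM trametinib, an inhibitor of the kinases MEK1 and MEK2 of the MAP kinase pathway, for 48 hours. For 48 hours as well, line 3311 was given vehicle or 50 nM trametinib, and each human line was given vehicle or the same inhibitor at 20 nM. H1651 cells with a lentiviral HNF4A construct were kept with or without 1 µg/mL doxycycline for 7 days to switch the construct on. Each culture is 1 line, and nothing in the labels says whether the 2 replicates of a group were separate cultures, so p-values measure only the spread between these samples.

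Type IV collagen is the network-forming collagen of basement membranes, the sheets on which epithelial cells rest. Its chains assemble as trimers of fixed make-up. Trimers of α1 and α2 chains occur in nearly all basement membranes, trimers of α3, α4 and α5 chains occur where membranes are thin and under load, such as the kidney glomerulus and the lung alveolus, and trimers of α5 and α6 chains occur in skin, bronchus and smooth muscle. The genes lie in head-to-head pairs, each pair reading outward from a short shared start region, and mutations of COL4A3, COL4A4 or COL4A5 cause Alport syndrome. The alveolar type 1 cell, the flat cell of gas exchange, is a known source of α3 and α4 chains in the lung.

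In the mouse annotation (GENCODE, build GRCm38) Col4a4 lies on chromosome 1 from 82448423 to 82586849 on the minus strand and Col4a3 from 82586921 to 82722059 on the plus strand, with 71 bases between them. Col4a6 lies on chromosome X from 141165403 to 141474076 on the minus strand and Col4a5 from 141475385 to 141689234 on the plus strand, with 1308 bases between them. Start regions of these pairs are shown because members of a pair are compared with each other below. They were read from the GRCm38 promoter windows of RefSeq, which matched 5 of the 6 genes, and capitals mark a CCAAT box or a GC box (letters GGGCGG, either strand).
Between Col4a4 and Col4a3, minus strand (chr1:82586850-82586920): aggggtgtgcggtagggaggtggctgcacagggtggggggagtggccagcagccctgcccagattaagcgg
Around the start of Col4a5, plus strand (chrX:141475169-141475418): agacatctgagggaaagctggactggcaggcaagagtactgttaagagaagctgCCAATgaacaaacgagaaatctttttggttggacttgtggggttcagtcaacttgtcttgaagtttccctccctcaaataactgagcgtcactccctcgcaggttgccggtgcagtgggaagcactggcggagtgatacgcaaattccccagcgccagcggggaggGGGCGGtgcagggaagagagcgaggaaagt
The stretch between Col4a4 and Col4a3 is 69% G and C and holds neither of these boxes and no TATA box. The Col4a5 stretch ends at the start that RefSeq gives, and the GENCODE model begins inside it, so that its GC box lies within that model of the gene.

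Col4a1 lies on chromosome 8 from 11198423 to 11312826 on the minus strand, and Col4a2 from 11312805 to 11449287 on the plus strand, so that the 2 gene models share 22 bases at their starts. Over the whole windows of 250 bases before to 50 bases after each start, both strands searched, the TATA box (letters TATAAA) was in none of the 5, against 13.6% of 32851 promoter windows. CCAAT was in the windows of Col4a1, Col4a2 and Col4a5 (37.4% of all windows), and the GC box was in those of Col4a1, Col4a2, Col4a5 and Col4a6 (35.7% of all windows). The AP-1 letters TGANTCA (7.81% of all windows), the HNF4 letters CAAAGTCC (1.42%) and the NKX2-1 letters CAAGTG (13.6%) were in none of the 5 windows. These windows are short, and a match or its lack is a description of letters.

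Total counts per library ran from 19692517 to 45284286. Hnf4a fell after 4OHT at 2 weeks from 371 ± 79.6 to 60.7 ± 10.2 CPM (read counts relative to library size, scaled by the TMM method; mean ± SD, n = 2 here and below), and at 48 hours from 225 ± 6.6 to 49.9 ± 0.677. Etv4 and Dusp6, targets of the MAP kinase pathway, checked the inhibitors. Etv4 was at 54 ± 4.09 CPM in 1027B vehicle, 21.2 ± 2.28 with MRTX1133 and 4.58 ± 1.44 with trametinib. In 3154 with Hnf4a intact, 3 nM MRTX1133 left Etv4 at 41.8 ± 3.88 against 54.4 ± 13.7 (edgeR adjusted p = 0.47). After 4OHT Etv4 was at 30 ± 1.33 against 60.2 ± 2.04 (0.0277). Dusp6 was at 271 ± 35.6 CPM in 1027B vehicle, 118 ± 6.32 with MRTX1133 and 39 ± 12.1 with trametinib. In 3154 Dusp6 did not pass with MRTX1133, with Hnf4a intact (0.933) or after 4OHT (0.198). All 5 epithelial markers (such as Epcam and Cdh1) were above 3 counts in every group, with summed levels from 3600 to 10900 CPM. In H1651 that sum was mostly KRT8 and KRT18, at 2970 ± 23.2 and 1370 ± 26.5 CPM without doxycycline, where EPCAM was at 1.77 ± 1.11. Fibroblast marker sums, given at the end, reached 770 CPM in H1651 without doxycycline. Of the markers of other cells, leukocyte sums lay between 0.836 and 8.56 CPM and endothelial sums between 1.01 and 28.5 CPM, and the called ones are given at the end.

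In the mouse cultures Col4a1 and Col4a2 were the high chains, Col4a5 was intermediate, and Col4a3, Col4a4 and Col4a6 were low without treatment. Levels between genes were compared per kilobase of exon, as CPM divided by the union of each gene's exons. In 1027B vehicle Col4a1 stood at 143 ± 19.4 CPM per kilobase, Col4a2 at 110 ± 14.8, Col4a5 at 9.21 ± 0.531, Col4a4 at 0.56 ± 0.147 and Col4a3 at 0.45 ± 0.355. The same order of the first 3 chains was found in 3311 vehicle, where Col4a1 was at 88.8 ± 1.23, Col4a2 at 26 ± 2.56 and Col4a5 at 7.35 ± 1.44 CPM per kilobase. Col4a6 there was at 1.32 ± 0.358 CPM per kilobase, above Col4a3 at 0.12 ± 0.00588 and Col4a4 at 0.112 ± 0.049, whose libraries overlapped. In 1027B, Col4a6 had 1 to 5 counts in each of the 6 libraries and was not tested.

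**Figure D1:**
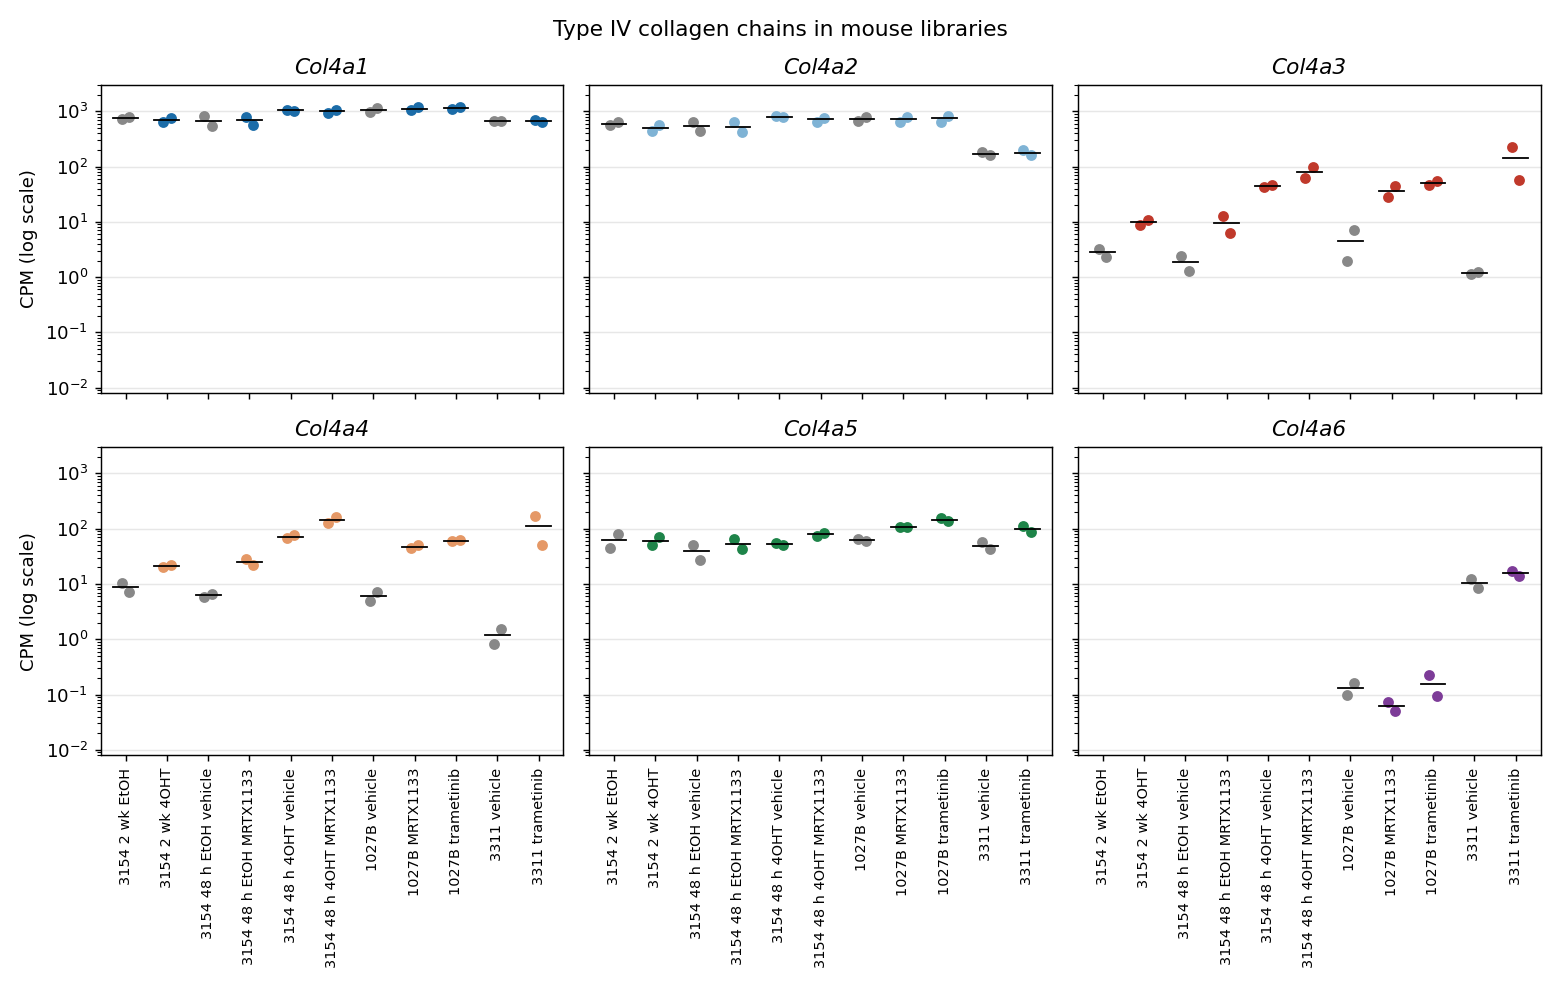
Each point is 1 mouse library, with its level in CPM on a log axis for the chain named above the panel, and the black bar is the mean of the 2 libraries of a group; untreated controls are grey. Col4a1 stays between 550 and 1200 CPM in every library, while Col4a3 runs from 1.15 to 223 CPM.

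Along the 11 mouse groups, Col4a3 was lowest in 3311 vehicle (1.19 ± 0.0586 CPM) and highest in 3311 with trametinib (140 ± 117), and Col4a4 was lowest in 3311 vehicle (1.19 ± 0.52) and had its highest mean in 3154 after 4OHT with MRTX1133 (144 ± 24.5). The 3311 trametinib libraries lay on both sides of that group for Col4a4, at 171 and 50.1 CPM, so the order of these 2 groups is not settled. For Col4a3 the 3 highest groups were 3311 with trametinib, 3154 after 4OHT with MRTX1133 and 1027B with trametinib, and the first and second of these overlapped. For Col4a1 the 5 highest groups were the 3 groups of 1027B and the 4OHT groups of the 48-hour experiment, from 995 ± 82.5 to 1140 ± 80.3 CPM, each overlapping its neighbour. The other 6 groups lay from 663 ± 9.18 to 751 ± 54.1 CPM, and the lowest library of the upper set (937 CPM) stood above the highest of the lower set (808 CPM). Col4a2 was at 172 ± 16.9 CPM in 3311 vehicle, under every library of the organoids (430 CPM or more). Tables were normalized separately, so levels across cultures are set side by side without a test.

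Deletion of Hnf4a was followed by higher Col4a3 and Col4a4, which encode the α3 and α4 chains, in both experiments with 3154. At 2 weeks Col4a3 was at 3.26 and 2.34 CPM in the ethanol libraries and at 8.83 and 10.8 CPM in the 4OHT libraries. Col4a4 was at 10.6 and 7.1 CPM with ethanol and 20.4 and 21.9 CPM with 4OHT. For both genes the 2 groups did not overlap, and both passed the test. In bulk RNA, more cells of a type and more RNA per cell cannot be told apart. Col4a3 was 3.48-fold higher (log2 1.80 ± 0.28 SE; adjusted p = 0.0209, edgeR's quasi-likelihood test with Benjamini-Hochberg adjustment over all genes, as for all adjusted p-values here). Col4a4 was 2.38-fold higher (log2 1.25 ± 0.24 SE; adjusted p = 0.0345). Neither call held without 4OHT replicate 1 (adjusted p = 0.0752 for Col4a3 and 0.126 for Col4a4) or without 4OHT replicate 2 (0.0986 and 0.126). The widely made chains did not pass. Col4a1 was at 751 ± 54.1 CPM with ethanol and 704 ± 87.5 with 4OHT (log2 -0.09), Col4a2 at 598 ± 55.8 and 500 ± 84.6 (log2 -0.26), and Col4a5 at 62.5 ± 24 and 60.8 ± 14.9 (log2 -0.04), all with overlapping libraries. So 2 of the 5 chains were called, both higher, where 9.81% of the 14492 genes tested were called and 4.03% were called higher.

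In the 48-hour experiment the same 2 chains were called. In vehicle, Col4a3 was at 2.44 and 1.3 CPM in the ethanol libraries (58 and 31 counts) and at 42.5 and 46.3 CPM in the 4OHT libraries (1120 and 1038 counts). Col4a4 was at 5.89 and 6.59 CPM with ethanol and at 68 and 76.1 CPM with 4OHT. Every 4OHT library was far above every ethanol library for both genes. Col4a3 was 23.7-fold higher (log2 4.57 ± 0.45 SE; adjusted p = 5.1e-04) and Col4a4 11.5-fold higher (log2 3.53 ± 0.20 SE; adjusted p = 1.29e-04). Col4a1 was at 808 and 550 CPM with ethanol and 1060 and 1030 CPM with 4OHT. Those groups did not overlap either, but the ethanol libraries differed by more than the distance from replicate 1 to the 4OHT group, and the difference did not pass (log2 0.62 ± 0.22 SE; adjusted p = 0.0618). Col4a2 (log2 0.56; adjusted p = 0.0933) and Col4a5 (log2 0.46; adjusted p = 0.278) were likewise not called. Without ethanol vehicle replicate 1 these 3 chains passed, with adjusted p = 0.0134 for Col4a1, 0.0241 for Col4a2 and 0.0228 for Col4a5. DESeq2 also called Col4a1 (adjusted p = 0.0496). The count of 2 of 5 chains, both higher, stands beside 31% of the 15458 genes called and 15.3% called higher.

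The deletion was also compared within the MRTX1133-treated organoids. Col4a3 was at 12.8 and 6.23 CPM with ethanol and MRTX1133 and at 62.4 and 99.8 CPM with 4OHT and MRTX1133. Col4a4 was at 27.8 and 21.7 CPM against 127 and 161 CPM. Both were called higher, Col4a3 by 8.5-fold (log2 3.09 ± 0.39 SE; adjusted p = 0.00133) and Col4a4 by 5.82-fold (log2 2.54 ± 0.19 SE; adjusted p = 1.98e-04). Col4a1 (log2 0.54; adjusted p = 0.101), Col4a2 (log2 0.43; 0.198) and Col4a5 (log2 0.56; 0.191) did not pass, although their libraries did not overlap. Here 27.7% of genes were called and 13.2% were called higher. Leaving out any 1 of the 4 libraries changed no call among the 5 chains.

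MRTX1133 itself was tested in 3154 in each Hnf4a state, at a dose (3 nM) that moved few genes with Hnf4a intact. Hnf4a RNA in that state was at 225 ± 6.6 CPM in vehicle and 182 ± 3.02 with MRTX1133, which did not pass (adjusted p = 0.378). With Hnf4a intact, Col4a4 was at 5.89 and 6.59 CPM in vehicle and at 27.8 and 21.7 CPM with MRTX1133. That 3.97-fold difference was called (log2 1.99 ± 0.19 SE; adjusted p = 0.0132), 1 of 5 chains where 0.349% of 15458 genes were called and 0.317% called higher. The call did not hold without the ethanol MRTX1133 replicate 1 (adjusted p = 0.0713) or in a fit of these 2 groups alone (0.207), in which 0 genes were called over all. Col4a3 was at 2.44 and 1.3 CPM in vehicle and 12.8 and 6.23 CPM with MRTX1133, which did not pass (log2 2.35 ± 0.44 SE; adjusted p = 0.0874), while DESeq2 called it (adjusted p = 5.06e-06). Col4a1 (log2 0.01) and Col4a2 (log2 -0.02) had overlapping libraries, and Col4a1's sign differed under DESeq2, RLE size factors and the fit of these groups alone.

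After 4OHT, MRTX1133 was set against a higher starting level. Remaining Hnf4a RNA was lower with it too, at 49.9 ± 0.677 CPM in vehicle and 27.5 ± 3.16 with MRTX1133 (adjusted p = 0.0185), and its part in the result was not tested. Col4a4 was at 68 and 76.1 CPM in vehicle and 127 and 161 CPM with MRTX1133, a 2-fold difference that passed (log2 1.00 ± 0.18 SE; adjusted p = 0.0263). Without any 1 of the 4 libraries it no longer passed, with adjusted p = 0.281 without vehicle replicate 1, 0.166 without vehicle replicate 2, 0.203 without MRTX1133 replicate 1 and 0.156 without MRTX1133 replicate 2. Col4a3 was at 42.5 and 46.3 CPM against 62.4 and 99.8 CPM (log2 0.87 ± 0.36 SE; adjusted p = 0.22), groups that did not overlap. Col4a5 was at 56.1 and 50.5 CPM against 74.4 and 83.6 CPM (log2 0.57 ± 0.29 SE; adjusted p = 0.324). A fit of these 2 groups alone called both (0.0106 for Col4a3 and 0.0043 for Col4a5), so 3 of 5 chains instead of 1, but it also called 3932 of 14847 genes. In the shared fit 4.64% of all genes were called and 2.1% called higher.

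The effect of MRTX1133 on Col4a3 was smaller after 4OHT than before it by 1.48 on the log2 scale, and that on Col4a4 by 0.99, but neither interaction passed. The interaction's log2 value was -1.48 ± 0.56 SE for Col4a3 (adjusted p = 0.615) and -0.99 ± 0.26 SE for Col4a4 (adjusted p = 0.541). None of the 5 chains was called by edgeR or by DESeq2, with 2 of them under 0.05 before adjustment. The background was 0% of 15458 genes by edgeR, with 1150 genes (7.44%) under 0.05 before adjustment and 36 genes called by DESeq2.

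In 1027B organoids both inhibitors were followed by higher Col4a3, Col4a4 and Col4a5, the 3 chains of the α3α4α5 trimer. Hnf4a carries no flox allele there but was called lower too, at 459 ± 17.7 CPM in vehicle, 270 ± 39 with MRTX1133 (adjusted p = 0.0375) and 227 ± 37.7 with trametinib (0.00535), and its part in the result was not tested. Col4a3 was at 1.99 and 6.99 CPM in vehicle, 28.3 and 44.1 CPM with MRTX1133 and 47.2 and 54.8 CPM with trametinib. The vehicle libraries differed 3.51-fold from each other. Col4a4 was at 4.84 and 7.04 CPM in vehicle, 44.1 and 50.5 CPM with MRTX1133 and 59 and 61.3 CPM with trametinib. Col4a5, whose chain is shared by the α3α4α5 and the α5α6 trimers, was at 64.4 and 59.4 CPM in vehicle, 109 and 108 CPM with MRTX1133 and 156 and 136 CPM with trametinib. In all 3 genes every inhibitor library was above both vehicle libraries, and every trametinib library was above both MRTX1133 libraries.

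With MRTX1133 the 3 chains were 8.14-fold (Col4a3, log2 3.02 ± 0.50 SE; adjusted p = 0.0221), 7.98-fold (Col4a4, log2 3.00 ± 0.19 SE; 0.00244) and 1.75-fold (Col4a5, log2 0.81 ± 0.11 SE; 0.0127) higher. This made 3 of 5 chains called, where 6.27% of 14555 genes were called and 3.01% called higher (913 genes, and 3515 with the replicate number as a block). Col4a3 missed the threshold without MRTX1133 replicate 1 (0.0507) and without MRTX1133 replicate 2 (0.0777). Col4a5 missed it without any 1 library, from 0.0536 without vehicle replicate 1 and 0.055 without vehicle replicate 2 to 0.0685 and 0.0623 without MRTX1133 replicates 1 and 2. With trametinib the same 3 were 11.5-fold (log2 3.52 ± 0.51 SE; adjusted p = 0.00451), 10.1-fold (log2 3.34 ± 0.19 SE; 4.34e-04) and 2.36-fold (log2 1.24 ± 0.11 SE; 0.00104) higher, and all 3 calls held without any 1 library. In that comparison 26.7% of genes were called and 13.5% called higher (3880 genes, and 6540 with the block).

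Col4a1 and Col4a2, the α1 and α2 chains, did not pass with either inhibitor. Col4a1 was at 1070 ± 145 CPM in vehicle, 1120 ± 108 with MRTX1133 and 1140 ± 80.3 with trametinib, and Col4a2 at 728 ± 97.9, 724 ± 108 and 743 ± 127. Their log2 changes lay between -0.01 and 0.10, smaller than their standard errors of 0.14 and 0.18. MRTX1133 at 20 nM and trametinib at 10 nM were also compared with each other. Col4a5 was lower with MRTX1133 (log2 -0.43 ± 0.11 SE), which did not pass (adjusted p = 0.15) but did with the replicate number as a block (adjusted p = 0.00889) and with DESeq2 (0.0274). None of the 5 chains was called by edgeR (1 under 0.05 before adjustment, 1 by DESeq2), and 0% of genes were, with 2357 (16.2%) under 0.05 before adjustment and 712 called by DESeq2. With the block, which called Col4a5 alone of the 5 chains, 2050 of the 14555 genes were called. The difference was -0.50 ± 0.43 SE for Col4a3 and -0.35 ± 0.17 SE for Col4a4 on the log2 scale.

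**Figure D2:**
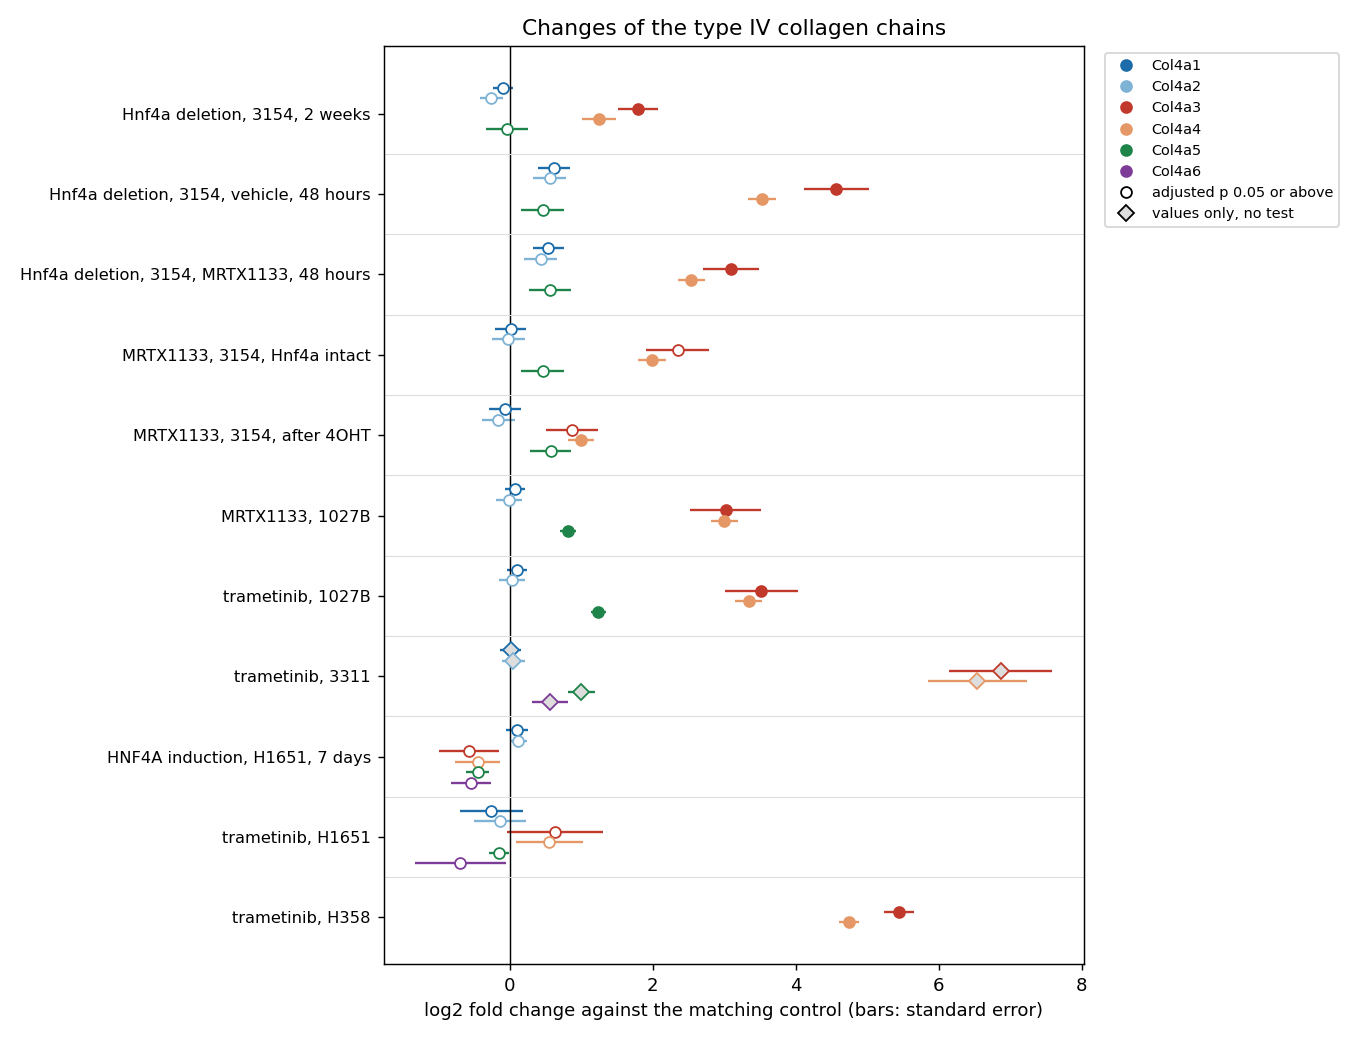
Log2 fold changes of each chain (colour) in each comparison with its matching control, with bars for the standard error; filled circles were called, open circles were not, and grey diamonds mark the contrast the family was picked on. Outside that contrast, which supports nothing, Col4a3 and Col4a4 lie right of Col4a1 and Col4a2 in the mouse comparisons, from 0.87 to 4.57 for Col4a3.

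In the 3311 line, the contrast on which the family was picked, Col4a3 had 31 and 31 counts in vehicle and 6220 and 1517 counts with trametinib, or 1.15 and 1.23 CPM against 223 and 57.7 CPM. Col4a4 was at 0.818 and 1.55 CPM in vehicle and 171 and 50.1 CPM with trametinib. Trametinib replicate 1 was 3.86-fold above replicate 2 for Col4a3 and 3.41-fold above it for Col4a4. Fold changes in the fit were 117 for Col4a3 (log2 6.87 ± 0.72 SE) and 93.4 for Col4a4 (log2 6.54 ± 0.69 SE). Col4a5 was at 56.3 and 42.5 CPM against 110 and 87.3 CPM (log2 1.00). Col4a6, the partner of Col4a5 in the α5α6 trimer, was at 12.5 and 8.48 CPM against 17 and 14 CPM (log2 0.56). Col4a1 (669 and 656 CPM against 700 and 630) and Col4a2 (184 and 160 against 197 and 159) had overlapping groups. Hnf4a RNA, also with overlapping libraries, was at 427 ± 73.9 CPM in vehicle and 327 ± 89.8 with trametinib. In the fit 3 of the 6 chains stood under the threshold, beside 39% of genes called and 19.4% called higher. Nothing is read from that count, since Col4a3 in this contrast chose the family. Col4a5, at 2-fold, was the lowest of the 3, and Col4a6, at 1.47-fold, was the nearest below it.

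The human lines differed from each other in which chains they made at all. H1651 had all 6 chains above the filter, whereas H358 had 2, COL4A3 and COL4A4. In H358, COL4A1 had 1 to 3 counts per library, COL4A2 0 to 2, COL4A5 2 to 16 and COL4A6 2 to 6. HNF4A had 0 counts in H358, in vehicle and with trametinib. COL4A3 in H358 was at 2.41 and 1.7 CPM in vehicle (93 and 57 counts) and at 102 and 79.1 CPM with trametinib (4741 and 2014 counts). COL4A4 was at 5.7 and 5.79 CPM in vehicle and 141 and 168 CPM with trametinib. The trametinib libraries were far above the vehicle libraries for both genes. COL4A3 was 43.7-fold higher (log2 5.45 ± 0.21 SE; adjusted p = 3.53e-06) and COL4A4 26.9-fold higher (log2 4.75 ± 0.14 SE; adjusted p = 1.4e-06). Both tested chains were called, beside 46.8% of 18972 genes called and 23.5% called higher, and both calls held without any 1 library. COL4A5 had 6 and 2 counts in vehicle against 16 and 4 with trametinib, too few to test.

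**Figure D3:**
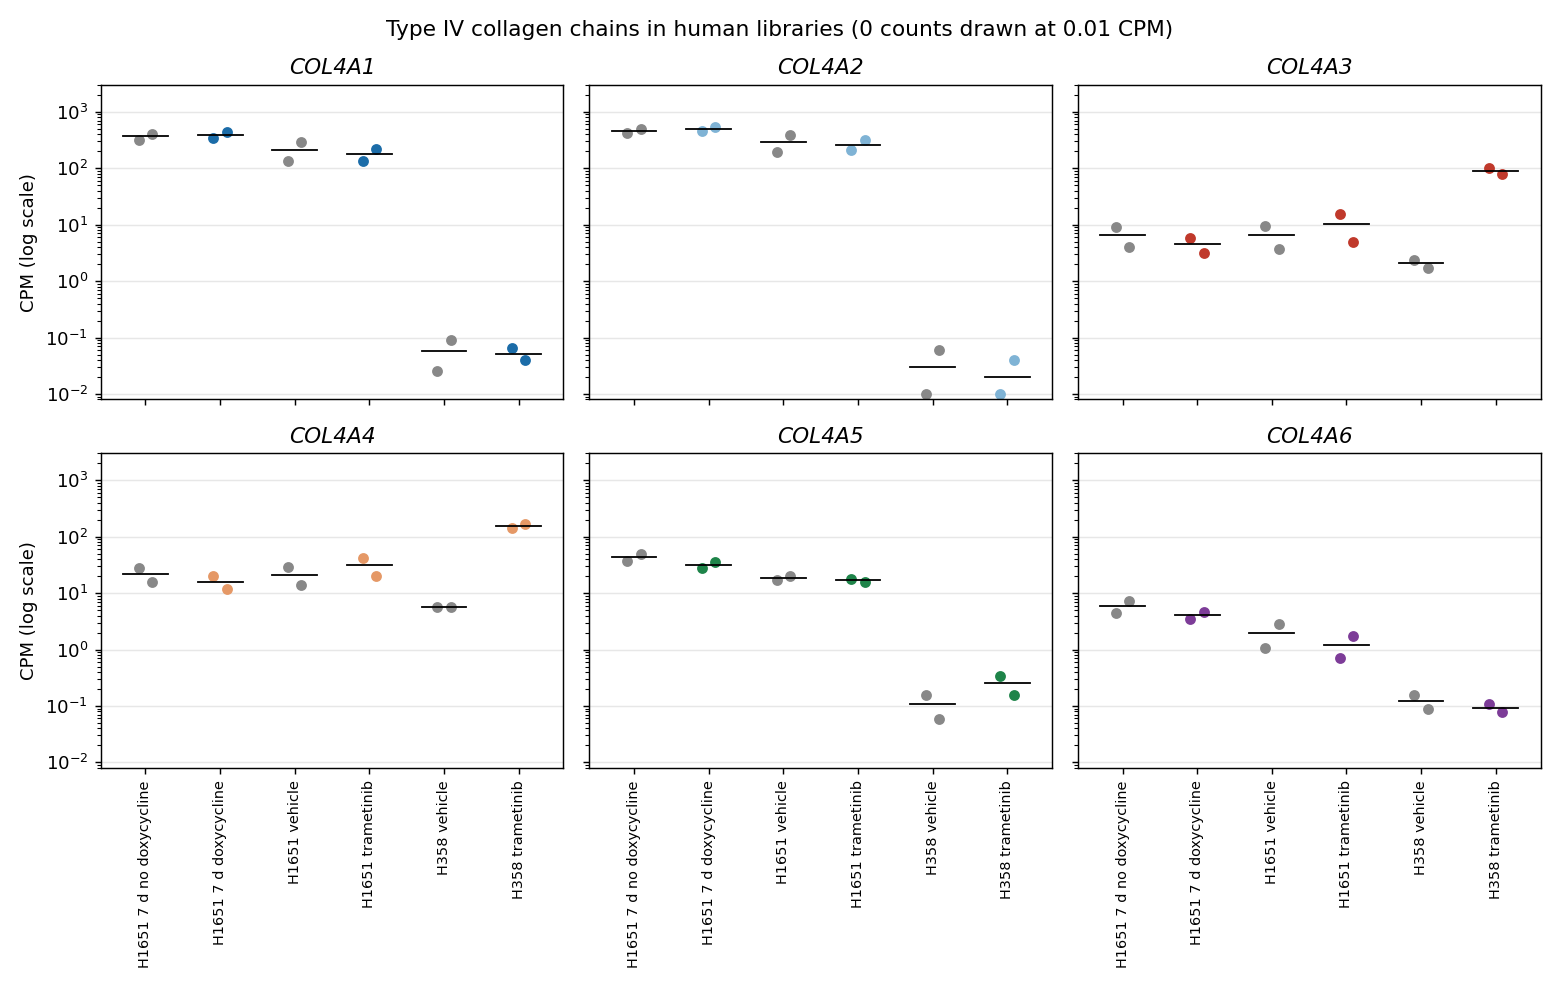
Each point is 1 human library, with its level in CPM on a log axis for the chain named above the panel, black bars are means of 2 libraries, and controls are grey; points at 0.01 CPM stand for 0 counts. The H358 trametinib libraries lie at 79.1 and 102 CPM for COL4A3, while COL4A1 and COL4A2 in H358 lie under 0.1 CPM.

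In H1651 no chain passed with either treatment in the fit without a replicate block. With the replicate number as a block, COL4A3 to COL4A6 were called lower with doxycycline, 4 of 6 chains, where 3048 of 17351 genes were called. With trametinib the block called COL4A3 and COL4A4 higher and COL4A1 and COL4A6 lower, 4 of 6 chains, where 1881 of 18277 genes were called. The labels do not say that these numbers pair the samples, and the values below are from the fit without the block. With doxycycline, which raised HNF4A from 41.5 ± 7.89 to 95.6 ± 1.73 CPM (adjusted p = 0.00979), COL4A3 was at 9.28 and 4.08 CPM without and 5.78 and 3.13 CPM with the drug. COL4A4 was at 27.5 and 15.9 CPM without and 20 and 11.7 CPM with it, and COL4A6 at 4.45 and 7.29 CPM without and 3.46 and 4.68 CPM with it. In these 3 genes the groups overlapped, and the value was lower with doxycycline in both replicates. COL4A5 was at 37.2 and 49.3 CPM without and 28.3 and 35 CPM with doxycycline, with no overlap (log2 -0.45 ± 0.16 SE; adjusted p = 0.28). It passed when the replicate 1 library without doxycycline was left out (adjusted p = 0.0301). COL4A1 (366 ± 65.1 against 394 ± 73.9 CPM) and COL4A2 (461 ± 64.4 against 501 ± 62.3 CPM) overlapped. Without the block, none of the 6 chains was called by edgeR or DESeq2 and 1 was under 0.05 before adjustment. In that edgeR fit 1.42% of 17351 genes were called, 1.04% called higher and 12.7% under 0.05 before adjustment.

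Trametinib in H1651 left the chains with overlapping groups throughout. COL4A3 was at 9.42 and 3.67 CPM in vehicle and 15.6 and 4.85 CPM with trametinib (log2 0.63 ± 0.67 SE), and COL4A4 at 28.5 and 14.1 CPM against 42.4 and 19.9 CPM (log2 0.55 ± 0.47 SE). Both were higher with trametinib in both replicates by number, while the 2 replicates of a group differed by more than the treatment did. COL4A1 was at 132 and 293 CPM against 132 and 223 CPM, and COL4A6 at 1.08 and 2.86 CPM against 0.706 and 1.71 CPM. Without the block, all 6 chains had adjusted p = 0.999, none was under 0.05 before adjustment, and none was called by DESeq2. Without vehicle replicate 1, COL4A4 passed (log2 1.14; adjusted p = 0.0474). Over all genes of that experiment 0% of 18277 were called by edgeR without the block, 597 (3.27%) were under 0.05 before adjustment and 47 were called by DESeq2. DUSP6 itself, at 50.8 ± 1.41 against 6.37 ± 1.55 CPM, did not pass by edgeR without the block (adjusted p = 0.149). The trametinib effects on COL4A3 in H358 and in H1651 came from separate tables, and their difference was not tested.

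Outside 3311, the share of the α3 and α4 chains in the family's summed level was higher in every treated mouse group than in its control. Col4a3 and Col4a4 together made up 0.448 ± 0.101% of the summed chain level per kilobase in 3154 ethanol vehicle at 48 hours. The share was 1.79 ± 0.0207% with MRTX1133, 4.03 ± 0.372% after 4OHT and 7.87 ± 0.964% after 4OHT with MRTX1133, with no overlap between any of these 4 groups. At 2 weeks it was 0.563 ± 0.202% with ethanol and 1.65 ± 0.112% with 4OHT. In 1027B it was 0.375 ± 0.142% in vehicle, 2.84 ± 0.224% with MRTX1133 and 3.63 ± 0.115% with trametinib. In 3311, given as a description since the family was picked there, it was 0.151 and 0.226% in vehicle and 21.3 and 7.86% with trametinib. With 2 libraries a group the smallest two-sided p of an exact permutation test is 0.333, so these shares carry no test. Dividing by the longest transcript in place of the exon union moved each group's share by less than its SD.

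**Figure D4:**
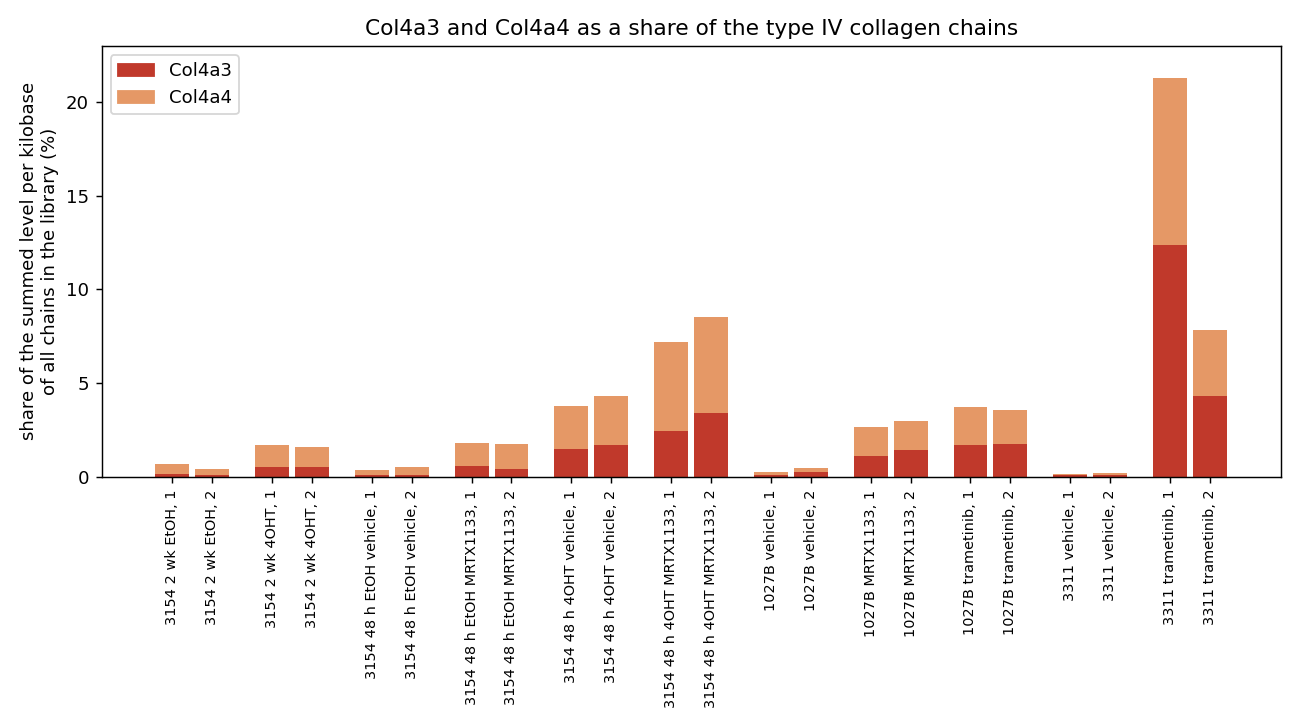
Bars give, for each mouse library, the share in percent of the summed level per kilobase of all type IV collagen chains that came from Col4a3 (red) and Col4a4 (orange). Outside 3311, on which the family was picked, both libraries of every treated group stand above those of its control. They run from 1.57% in 3154 with 4OHT at 2 weeks to 8.55% in 3154 after 4OHT with MRTX1133.

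Over the 22 mouse libraries, with each table centred on its own mean, the Pearson r of log2 CPM was 0.99 for Col4a3 and Col4a4 and 0.95 for Col4a1 and Col4a2, and it was 0.54 for Col4a1 and Col4a3 and 0.33 for Col4a2 and Col4a4. Col4a5, on another chromosome, had r of 0.80 with Col4a3 and 0.78 with Col4a4, and 0.54 with Col4a1. Without the 4 libraries of 3311, on which the family was picked, r over the other 18 was 0.98 for Col4a3 and Col4a4, 0.96 for Col4a1 and Col4a2, 0.70 for Col4a1 and Col4a3, 0.41 for Col4a2 and Col4a4, and 0.76, 0.75 and 0.60 for Col4a5 in the same order as above. These values describe libraries that share cultures, controls and normalization. The level per kilobase of Col4a1 was 1.1 to 3.64 times that of Col4a2 (median 1.27), and that of Col4a3 was 0.21 to 1.5 times that of Col4a4 (median 0.653). The gene models overlap little on opposite strands, by 0.295% of Col4a1's exon bases, 0.982% of Col4a2's and 5.65% of Col4a3's (with C430014B12Rik), and whether the counting used strand is not given in the sources used here.

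**Figure D5:**
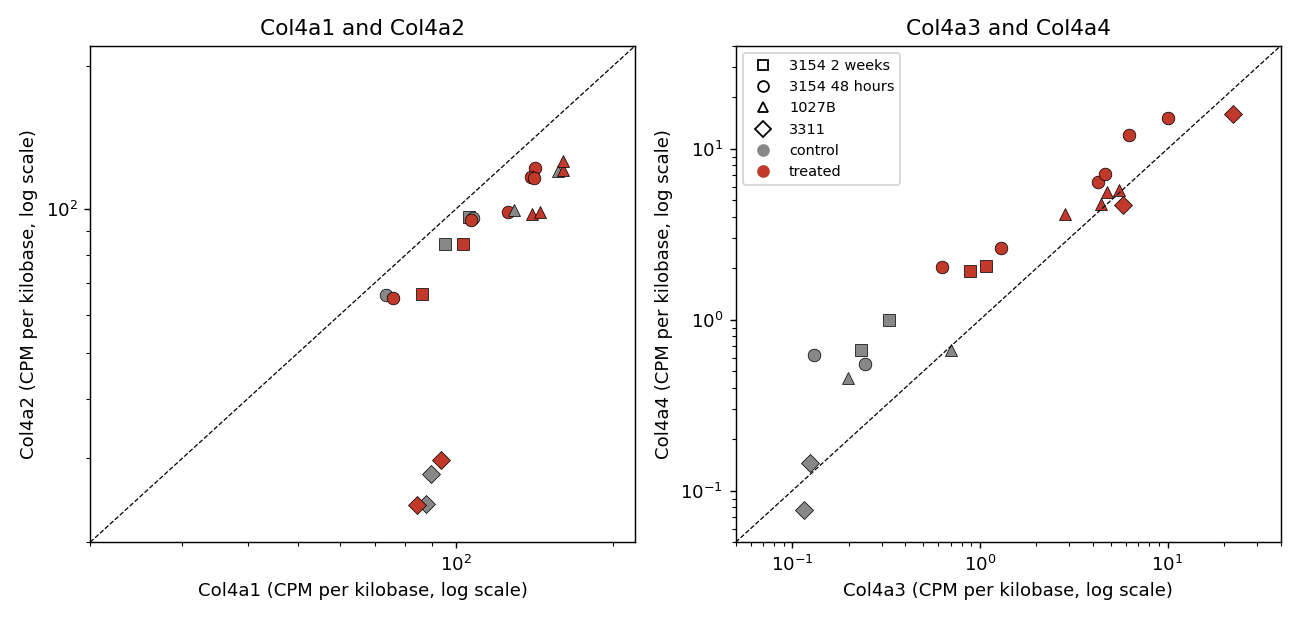
Each point is 1 mouse library, plotted by its CPM per kilobase for the 2 genes of a head-to-head pair on log axes, with the shape giving the culture, grey for controls and red for treated libraries; the dashed line marks equal levels. For Col4a3 and Col4a4 control and treated libraries spread along the diagonal (r = 0.99, and 0.98 without 3311), and for Col4a1 and Col4a2 the 3311 libraries lie apart, with ratios up to 3.64.

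Among 12598 genes measured in all 4 mouse tables, and with the chains themselves left out of the ranking, those whose pattern was most like Col4a3's over the 22 libraries, those of 3311 included, were Wwc2 (r = 0.975), Dnajc14 (0.957), Tmem260 (0.956), P4ha3 (0.955) and Zfp664 (0.953). Those most like Col4a5 were Zkscan3 and Ehbp1 (both 0.940), Lamb2 (0.938), Creb3l2 (0.930) and Gm33989 (0.920). Outside the family, those most like Col4a1 were Tln1 (0.918), Plxna1 (0.900), Irgq (0.899), Parp4 (0.898) and Gtf3c1 (0.894). Over the 18 libraries without 3311 these genes had r from 0.930 to 0.965 with Col4a3, 0.925 to 0.952 with Col4a5 and 0.905 to 0.933 with Col4a1.

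The enzymes and chaperones that fold, modify and cross-link collagen did not move as 1 group. P4ha3, a catalytic subunit of prolyl 4-hydroxylase, was a low gene outside 3311, and in some controls it had too few counts for a test that did not depend on its treated libraries. With deletion at 48 hours it was at 0.168 ± 0.119 against 1.57 ± 0.138 CPM in vehicle (6 counts or fewer per ethanol library), and in 1027B at 0.289 ± 0.204 CPM in vehicle (8 counts or fewer per library), 1.6 ± 0.151 with MRTX1133 and 2.23 ± 0.378 with trametinib. These are given as values only. At 2 weeks it was at 0.547 ± 0.392 CPM with ethanol and 3.11 ± 0.267 with 4OHT. That too is given as values only, since its entry into the test rested on the 4OHT libraries. Its controls held more counts in H358, where it went from 0.84 ± 0.386 to 2.4 ± 0.0496 CPM (adjusted p = 0.00832). In 3311, given as values only, it was at 2.95 ± 1.12 CPM in vehicle and 70.9 ± 30.6 with trametinib. The other prolyl 4-hydroxylase subunits fell after Hnf4a deletion at 48 hours in vehicle, P4ha1 from 313 ± 83.3 to 145 ± 9.53 CPM (0.00533), P4ha2 from 134 ± 20.3 to 57.9 ± 7.45 (0.00214) and P4hb from 2610 ± 458 to 1320 ± 50.3 (0.00225). Of the 19 members tested there 7 were called, 4 higher and 3 lower, beside 31% of all genes. P4ha3 and Loxl4, a lysyl oxidase, were among the 4 and had 6 counts or fewer in each ethanol library. At 2 weeks 0 of the 20 members tested were called lower, where 9.81% of all genes were called in either direction. In 1027B with trametinib 8 of 20 were called, 7 higher and 1 lower, beside 26.7% of all genes, with a median of 0.38 beside -0.01. They included Pxdn, the peroxidase that forms sulfilimine cross-links between type IV collagen trimers (15.5 ± 4.12 to 49.9 ± 13 CPM; 0.00707), P3h2, a prolyl 3-hydroxylase that acts on type IV collagen (10.7 ± 0.415 to 27.4 ± 1.67 CPM; 0.00157), and Serpinh1, the collagen chaperone HSP47 (179 ± 2.53 to 274 ± 5.52 CPM; 0.0088). In H358 P3H2 rose from 42.4 ± 2.57 to 133 ± 4.33 CPM (2.43e-05), and 15 of 23 members were called, 7 higher and 8 lower, beside 46.8% of all genes, with a median of 0 beside 0.02.

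Laminins, the other network of the basement membrane, changed in mixed directions. Lamb2, the β2 chain, which replaces β1 in mature glomerular and alveolar membranes, rose in 1027B from 130 ± 8.66 CPM to 220 ± 32.2 with MRTX1133 (adjusted p = 0.0224) and 347 ± 2.52 with trametinib (0.00112), and in H358 from 146 ± 6.4 to 480 ± 75.5 (4.46e-05). Lamb1, the β1 chain, fell in 1027B with trametinib from 316 ± 11.6 to 140 ± 16.9 CPM (0.00394) and in H358 from 455 ± 79.8 to 277 ± 3.01 (0.00293). Of the laminin chains tested, 4 of 7 were called in 1027B with trametinib (2 in each direction, median log2 -0.18, beside 26.7% of all genes called) and 7 of 10 in H358 (1 higher, 6 lower, median -0.55, beside 46.8%). After Hnf4a deletion at 48 hours in vehicle, Lamb3, the laminin β3 chain, rose 1.52-fold (adjusted p = 0.0289), 1 of 2 laminin chains called of 7 where 31% of all genes were. At 2 weeks Lamb3 did not pass, at 357 ± 25.8 CPM with ethanol and 259 ± 50 with 4OHT (log2 -0.46; adjusted p = 0.142). The 2 of 7 laminin chains called there, beside 9.81% of all genes, were Lama3, the α3 chain, higher at 128 ± 63.8 against 22.5 ± 4.21 CPM (0.0186), and Lamc1, the γ1 chain, lower at 235 ± 8.99 against 448 ± 111 CPM (0.0397).

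Among other basement membrane components, Sparc, a collagen-binding matrix protein, and Npnt (nephronectin), an integrin ligand, rose beside Col4a3 in several comparisons. Sparc rose after Hnf4a deletion at 48 hours from 145 ± 23.5 to 270 ± 22 CPM (adjusted p = 0.00832), in 1027B from 362 ± 49.5 to 701 ± 7.98 with trametinib (0.00377), and in H358 from 40.1 ± 15.4 to 132 ± 33.8 (0.00116). Npnt rose in 1027B from 107 ± 8.66 CPM to 192 ± 14.6 with MRTX1133 (0.0111) and 229 ± 4.52 with trametinib (0.00137), and in H358 from 14 ± 0.473 to 104 ± 7.51 (4.57e-06). Col18a1, the core of a collagen and heparan sulfate proteoglycan, fell in 1027B with trametinib from 202 ± 15.2 to 82.1 ± 7.37 CPM (0.00119) and rose in H358 from 210 ± 5.54 to 472 ± 42.7 (1.1e-04). The list had 6 of 12 members called in 1027B with trametinib (4 higher, 2 lower, beside 26.7% of all genes called) and 9 of 11 in H358 (8 higher, 1 lower, beside 46.8%).

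Among collagen receptors, Itga2, the α2 subunit of the collagen receptor integrin α2β1, fell in 1027B and H358. It went in 1027B from 636 ± 58.1 CPM to 226 ± 51.6 with MRTX1133 (adjusted p = 0.00946) and 92.8 ± 8.45 with trametinib (5.78e-04), and in H358 from 78.8 ± 10.2 to 11.7 ± 1.62 (1.34e-05). In 3154 it rose with Hnf4a deletion in vehicle at 48 hours from 143 ± 24.3 to 239 ± 5.16 CPM (0.0136), 1 of 5 receptors called beside 31% of all genes. With deletion it was at 337 ± 105 against 334 ± 119 CPM at 2 weeks (0.98) and at 99 ± 18.1 against 96.8 ± 4.65 CPM under MRTX1133 (0.906). It fell with MRTX1133 after 4OHT to 96.8 ± 4.65 (0.0174). Itga2 was the receptor called in 1027B, 1 of 6 with each inhibitor, beside 6.27% of all genes with MRTX1133 and 26.7% with trametinib. In H358 3 of 6 receptors were called beside 46.8% of all genes, ITGA1 and ITGA2 lower and DDR1, a collagen-binding receptor kinase, higher.

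Among genes of basement membrane turnover, the protease Mmp15 and the inhibitor Timp2 were called higher in each of the 3 comparisons of Hnf4a deletion, and Timp3 was not. At 48 hours in vehicle Mmp14, a membrane-bound protease, went from 203 ± 31.3 to 557 ± 14.1 CPM (adjusted p = 4.52e-04), Mmp15 from 76.3 ± 15.7 to 204 ± 1.63 (0.00165) and Timp2 from 53.5 ± 6.82 to 230 ± 11.4 (1.41e-04). Timp3 was at 207 ± 69.3 CPM with ethanol and 216 ± 9.39 with 4OHT (log2 0.06; 0.862). Mmp14, Mmp15 and Timp2 were also called higher under MRTX1133 (0.00333, 0.00158 and 2.17e-04), with Timp3 at log2 -0.45 (0.198). At 2 weeks Mmp15 went from 31.5 ± 8.06 to 96.8 ± 4.81 CPM (0.0135) and Timp2 from 104 ± 8.59 to 283 ± 11.4 (0.00731), Mmp14 did not pass (255 ± 35.2 against 353 ± 18.4 CPM; 0.1), and Timp3 fell from 146 ± 1 to 74.9 ± 7.83 CPM (0.0157). The other 3 genes tested, Mmp9, Mmp10 and Timp1, had 13 counts or fewer in every ethanol library of these comparisons and were in the test through their higher 4OHT libraries, so their calls are not counted here. At 48 hours in vehicle Mmp9 was at 0.378 ± 0.238 against 3.32 ± 0.673 CPM, Mmp10 at 0.231 ± 0.0887 against 1.66 ± 0.389 and Timp1 at 0.168 against 0.755 ± 0.0579. In 1027B with trametinib 3 of 5 were called, all higher, beside 26.7% of all genes, among them Timp3, an inhibitor held in the matrix, from 150 ± 9.46 to 637 ± 91.9 CPM (7.52e-04). In H358 TIMP2 rose from 350 ± 54.4 to 951 ± 19.9 CPM (8.62e-05) and MMP7 from 5.17 ± 0.344 to 73 ± 5.63 (2.9e-06), while TIMP1 fell. Over the 5 basement membrane lists together, 0 of 48 members were called with MRTX1133 in 3154 with Hnf4a intact (11 under 0.05 before adjustment and 2 by DESeq2, where 0.349% of all genes were called and 11.8% were under 0.05 before adjustment) and 0 of 63 with trametinib in H1651 (6 and 1, where 0% of all genes were called and 3.27% were under 0.05 before adjustment).

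The summed level of alveolar type 1 cell markers was higher in each comparison outside H1651 and 3311 in which Col4a3 or Col4a4 was called. Single markers went in both directions, and their part in the result was not tested. The summed level was 2980 to 3020 CPM in 3154 ethanol vehicle at 48 hours, 3790 to 4240 with MRTX1133, 5400 to 5450 after 4OHT and 7490 to 7580 after 4OHT with MRTX1133. Of 10 markers tested, 8 were called higher after deletion in vehicle, beside 31% of all genes, such as Rtkn2 (1.11 ± 0.269 to 10.8 ± 0.147 CPM; adjusted p = 3.79e-04) and Cldn18 (10.4 ± 2.46 to 120 ± 11.1; 1.41e-04). With MRTX1133 and Hnf4a intact 4 of 10 were called, all higher, Ager, Hopx, Rtkn2 and Cldn18, beside 0.349% of all genes. None of these calls held in a fit of these 2 groups alone, in which 0 genes were called. At 2 weeks the sum was 3320 to 3360 CPM with ethanol and 5160 to 5290 with 4OHT, and 4 of 11 markers were called beside 9.81% of all genes, all higher, Aqp5, Rtkn2, Cldn18 and Krt7. Most of that rise in the sum was Krt7, a keratin of many epithelia, at 874 ± 72 against 2330 ± 93.9 CPM (0.00792). Ager (log2 -0.11), Clic5 (-0.65) and Pdpn (-1.61) did not pass there, and the median of the 11 was 0.26. In 1027B the sum was 4590 to 4650 CPM in vehicle, 4720 to 5440 with MRTX1133 and 6090 to 7260 with trametinib. There Clic5 rose with trametinib from 268 ± 106 to 1010 ± 76.5 CPM (0.00646), while Aqp5 fell from 1110 ± 15.8 to 795 ± 87.4 (0.0262). The sum was 471 to 499 CPM in 3311 vehicle and 1320 to 1830 with trametinib, with Clic5 at 154 ± 11.7 against 937 ± 148 CPM and Rtkn2 at 33.5 ± 1.92 against 7.7 ± 1.69. In H358 it was 1690 to 1750 CPM in vehicle and 2900 to 3150 with trametinib. There 7 of 9 markers were called beside 46.8% of all genes, 6 higher and 1 lower, with CLIC5 rising from 3.77 ± 0.712 to 162 ± 12.3 CPM (1.4e-06) and RTKN2 falling from 15.9 ± 3.15 to 8.01 ± 1.72 (0.00523). In H1651 the sums overlapped between groups with doxycycline (255 to 307 against 253 to 298 CPM). With trametinib there, where no chain was called without the replicate block, the sum was 475 to 487 CPM against 410 to 426 in vehicle. Without the block 0 of 9 markers were called (1 under 0.05 before adjustment).

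Fibroblasts also make type IV collagen, and their markers were few in the mouse cultures. The 1027B sums were 2.28 to 3.68 CPM in vehicle and 2.05 to 2.19 with trametinib, over the 3 of 9 markers with a row, and those of 3311 were 21.7 to 26.5 and 18.5 to 19 CPM, with Col1a2 at 0 counts. Single markers in 3311 went in both directions, with Col1a1 at 1.72 ± 0.514 against 5.31 ± 1.97 CPM, Acta2 at 0.251 ± 0.0395 against 1.34 ± 0.231 and Pdgfra at 13.6 ± 0.176 against 7.58 ± 0.178. In 3154 at 48 hours the sum over 2 markers was 78.7 to 122 CPM in ethanol vehicle and 79.1 to 118 after 4OHT, and with MRTX1133 it was 91.8 to 143 and 99.1 to 99.2 CPM. Under MRTX1133, Col1a1 was at 0.118 ± 0.00407 CPM with ethanol and 0.45 ± 0.0334 with 4OHT, with 3 counts or fewer per library before and 12 or fewer after. It was in the test through its higher 4OHT libraries, so its call is not counted here. Its part in the rise of Col4a3 and Col4a4 was not tested. In H358 the sum was 42.4 to 51.5 CPM in vehicle and 247 to 349 with trametinib, mostly COL1A1 (34.4 ± 2.9 to 126 ± 21.8 CPM) and LUM (10 ± 3.21 to 164 ± 51.9), with COL1A2, DCN and THY1 at 0 counts in vehicle. Their part in the rise of COL4A3 and COL4A4 in H358 was not tested. In H1651 all 9 markers had a row, and the sum was 676 to 770 CPM without and 418 to 461 with doxycycline (2 of 8 called beside 1.42% of all genes, COL3A1 and ACTA2, both lower), and 443 to 558 CPM in vehicle and 530 to 705 with trametinib.

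Endothelial cells make type IV collagen too, and some of their markers were higher beside Col4a3 and Col4a4. Their summed level in H358 was 13.9 to 15.6 CPM in vehicle and 28.3 to 28.5 with trametinib, over 5 of 6 markers with a row. CDH5, the endothelial cadherin, was at 0.539 ± 0.044 against 6.37 ± 2.35 CPM (adjusted p = 1.35e-04), and VWF, von Willebrand factor, at 1.52 ± 0.456 against 7.23 ± 0.172 (2.74e-04), so that 2 of the 5 tested were called, beside 46.8% of all genes. In 1027B the sum over 2 markers was 2.86 to 3.95 CPM in vehicle, 4.57 to 7.13 with MRTX1133 and 8.1 to 10 with trametinib, and Vwf rose with trametinib from 3.1 ± 0.896 to 8.77 ± 1.51 CPM (0.0197). In 3154 at 48 hours the sum over 2 markers was 1.01 to 2.15 CPM in ethanol vehicle, 1.85 to 2.45 with MRTX1133, 2.39 to 3.35 after 4OHT and 4.49 to 4.51 after 4OHT with MRTX1133. Vwf was called for deletion under MRTX1133, at 1.48 ± 0.337 against 3.88 ± 0.0288 CPM (0.0168). At 2 weeks the sums overlapped, at 11.6 to 13.7 CPM with ethanol and 6.11 to 11.7 with 4OHT, and Pecam1 fell from 5.48 ± 0.639 to 2.12 ± 0.125 CPM (0.0394). In 3311 the sum was 3.31 to 4.18 CPM in vehicle and 2.36 to 2.83 with trametinib.

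Leukocyte markers were few and went in both directions, and Ptprc had 7 counts or fewer in each library of its lower group. PTPRC, the pan-leukocyte antigen CD45, was at 0.182 ± 0.0379 CPM in H358 vehicle and 0.66 ± 0.1 with trametinib. In 1027B Ptprc was at 1.44 ± 0.501 CPM in vehicle and 0.205 ± 0.0255 with trametinib. Both are given as values only, since the gene was in those tests through its higher group. Lyz2, a lysozyme of myeloid cells that alveolar type 2 cells also make, was called for deletion under MRTX1133, at 0.737 ± 0.474 against 4.28 ± 1.53 CPM (adjusted p = 0.0274). In 3311 Cd68, of macrophages, was at 4.47 ± 0.569 CPM in vehicle and 1.25 ± 0.417 with trametinib. Epithelial markers were also called in some comparisons. In H358 their sum was 5340 to 5530 CPM in vehicle and 3600 to 3880 with trametinib, and 4 of 5 were called beside 46.8% of all genes, CDH1 higher and EPCAM, KRT8 and KRT18 lower. In 1027B with trametinib 2 of 5 were called beside 26.7% of all genes, Cdh1 higher and Krt19 lower, and with doxycycline in H1651 KRT8 and KRT18 were called higher, beside 1.42% of all genes. The part of epithelial, endothelial and leukocyte markers in the results for the chains was not tested.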

How the data were processed

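RNA had been sequenced from 34 libraries, poly(A)-selected with a strand-marking kit per the labels' protocols. The authors deposited raw read counts per gene in 7 tables, with no normalization. Per the submitters' processing notes, cutadapt 3.5, STAR 2.7.6a and featureCounts 1.6.3 were used, with builds mm10, mm39 and hg38 named and no role given. Columns of the 3311 table give treatment and replicate number but no culture, and were taken as 3311 from the table's own name.

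Tables were fitted separately with edgeR 4.0.16 in R 4.3.3 (filterByExpr defaults, TMM, quasi-likelihood F-test, Benjamini-Hochberg adjustment over all genes tested), and a gene was called at an adjusted p under 0.05. The 48-hour 3154 table and the 1027B table each shared 1 fit. Standard errors are the log2 change divided by the root of F. At 3 counts or fewer no fold is given. The members and lists were chosen with earlier results of these data known. Named genes are the 6 chains, for each list and comparison the 3 called genes that changed most (any gene where 5 or fewer were tested), the 5 genes most like Col4a1, Col4a3 and Col4a5, and Dusp6, Etv4 and Hnf4a as checks. P4ha1, P4hb and Serpinh1, and values of list members in comparisons where they were not among those 3, were chosen after their values were seen. Tested on simulated data, with 200 genes changed 3-fold, the fits recovered 78% (2-week 3154 table) to 90.5% (doxycycline table) of them. False calls were 3.53% (1027B) to 12.1% (H1651 trametinib) of the calls. Alternatives were DESeq2 1.42.0, RLE size factors, no count filter, only the groups compared, a replicate block and leaving out each library. In 1027B, replicate differences correlated in each of the 3 pairs of groups (r = 0.243, 0.372 and 0.414), so results with the replicate number as a block are given there beside the main fit. The main fit of every table had no block. Of the gene identifiers of the mouse tables, 96.8% to 99.9% were in the annotation used for coordinates. No 2 libraries of a group agreed within counting noise (chi-square per degree of freedom 5.65 to 83.1). Some items of the series are not reported here.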

Additional observations from a re-analysis of the deposited data

How the results depend on the processing

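Outside 3311, of 16 pairs of a chain and a comparison that were called, all 16 kept their sign in every alternative run, 15 were called in every alternative other than leaving out a library, and 10 were also called without any 1 library. Among 43 uncalled pairs the sign of small changes varied. The cause of each change below was not tested.

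With MRTX1133 in 3154 and Hnf4a intact, 1 chain was called, 2 with DESeq2 and 0 in a fit of only the groups compared; Col4a1 changed sign there (log2 -0.02 with DESeq2 and with RLE size factors, -0.01 in the fit of only these groups). After 4OHT, 3 chains were called in place of 1 when only the groups compared were fitted. For MRTX1133 against trametinib in 1027B, 1 chain was called with DESeq2 and 1 with the replicate block, in place of 0, and the pairing there changed no other call of a chain. Col4a1 in 3311 was at -0.0046 with DESeq2 and with RLE size factors.

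Outside 1027B the libraries share only a replicate number. Correlations of replicate differences were 0.427 at 2 weeks, -0.251 to 0.549 at 48 hours, 0.126 in 3311, 0.318 and 0.623 in H1651 with doxycycline and trametinib, and 0.318 in H358. With the replicate block there, 4 chains were called with doxycycline (COL4A3 to COL4A6, all lower) and 4 with trametinib in H1651, in place of 0. Those with trametinib were COL4A3 and COL4A4, higher, and COL4A1 and COL4A6, lower. Over all genes the block called 3048 of 17351 with doxycycline and 1881 of 18277 with trametinib. Col4a1 was also called with the block for deletion at 48 hours in vehicle. A crossed replicate block for deletion under MRTX1133, added after seeing the data (r = -0.199 for the numbers as given), called 5 of 5 chains and 6620 of 14890 genes.

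Leaving out 1 library at a time assumes that the lone library left in a group varies like the others. The chains called then ranged from 0 to 2 at 2 weeks, 2 to 5 for deletion at 48 hours in vehicle, 0 to 1 for MRTX1133 with Hnf4a intact, 0 in each fit after 4OHT, 1 to 2 for MRTX1133 in 1027B, 3 to 4 in 3311 (a description, as the family was picked there), and 0 to 1 in H1651 with doxycycline and with trametinib. Log2 changes that crossed zero ranged as follows. At 2 weeks Col4a1 ran from -0.23 to 0.02 and Col4a5 from -0.40 to 0.42. With MRTX1133 and Hnf4a intact Col4a1 ran from -0.29 to 0.31 and Col4a2 from -0.34 to 0.28, and after 4OHT Col4a1 from -0.16 to 0.01. The interaction of Col4a1 ran from -0.39 to 0.21, of Col4a2 from -0.43 to 0.18 and of Col4a5 from -0.40 to 0.48. In 1027B with MRTX1133 Col4a1 ran from -0.06 to 0.24 and Col4a2 from -0.16 to 0.16, with trametinib Col4a1 from -0.04 to 0.27 and Col4a2 from -0.16 to 0.20, and between the inhibitors Col4a1 from -0.13 to 0.07 and Col4a2 from -0.20 to 0.15. In 3311 Col4a1 ran from -0.08 to 0.07 and Col4a2 from -0.12 to 0.19. In H1651 with doxycycline COL4A1 ran from -0.10 to 0.30, COL4A2 from -0.02 to 0.27 and COL4A3 from -1.09 to 0.13. With trametinib there COL4A1 ran from -0.73 to 0.43, COL4A2 from -0.55 to 0.46, COL4A3 from -0.44 to 1.47, COL4A4 from -0.10 to 1.14 and COL4A6 from -1.46 to 0.17.

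Counts over all genes moved by more than 1.5 times as follows. At 2 weeks 1421 genes were called, 2311 with DESeq2 and 4563 with the replicate block. For deletion at 48 hours in vehicle 4795 were called, and 3154 in the fit of only those groups. For MRTX1133 with Hnf4a intact 54 were called, 330 with DESeq2 and 0 in the fit of only those groups, and after 4OHT 717, 1342 and 3932. In 1027B with MRTX1133 913 were called, 1636 with DESeq2 and 3515 with the block, and with trametinib 3880 and 6540 with the block. Between the inhibitors 0 were called, 712 with DESeq2, 2050 with the block and 1 in the fit of only those groups. With doxycycline 247 were called, 451 with DESeq2 and 3048 with the block, and with trametinib in H1651 0, 47 with DESeq2, 2 without the count filter and 1881 with the block. Leaving out 1 library, the genes called ranged from 395 to 2790 at 2 weeks, 1668 to 5964 for deletion at 48 hours in vehicle, 1745 to 2805 for deletion under MRTX1133 (4279 with all libraries), 0 to 309 for MRTX1133 with Hnf4a intact, 0 to 23 after 4OHT, 138 to 349 for MRTX1133 and 1336 to 2754 for trametinib in 1027B, 0 to 2 between the inhibitors, 3772 to 6298 in 3311 (5938 with all), 232 to 412 with doxycycline and 0 to 193 with trametinib in H1651. Of called list genes, 260 of 967 results without 1 library and 23 of 1089 under other alternatives no longer passed, and none changed sign.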
